A study of Saccharomyces cerevisiae with 15 samples.

Results

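The RPS14, RPL1 and RPL36 pairs are 3 pairs of duplicated ribosomal protein (RP) genes of budding yeast selected because one copy showed little signal of the promoter-binding proteins Fhl1 or Ifh1. The inequality was regular in RPL1 with Fhl1 and with Ifh1 in untreated cells. In RPS14 it was regular with Fhl1 but varied between arrays with Ifh1, and in RPL36 the lower copy differed between arrays. The 3 pairs hold 6 genes, RPS14A, RPS14B, RPL1A, RPL1B, RPL36A and RPL36B. Each gene was read on 1 intergenic region, the one its 5′ end faces. These 6 regions stood among 129 regions faced by cytosolic RP genes and 6803 features on the array. The selection used these same arrays, so the levels of the copies and their differences are given as a description, with no test. The change with rapamycin between the Fhl1 groups was not itself a criterion of that selection and was tested. It is formed from levels that served the selection, so the test is not independent of it.

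Binding was measured by chromatin immunoprecipitation of myc-tagged protein followed by hybridisation to a two-colour array (ChIP-chip), with immunoprecipitated DNA of the untagged wild-type strain W303 in the second channel of every array. The Fhl1 rapamycin group (5 arrays) and the Fhl1 untreated group (3 arrays) used W303+FHL1-13myc-HIS3MX6. The Ifh1 rapamycin group (3 arrays) and the Ifh1 untreated group (4 arrays) used W303+IFH1-13myc-TRP1MX6. All cultures were in log phase in YPD, a rich medium, at 30 °C, and the treated ones received rapamycin at 200 ng/mL. The labels call the arrays of a condition biological replicates. The duration of the treatment, the number of clones of each tagged strain, and whether the W303 culture beside a treated sample was itself treated were not stated in the labels.

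Fhl1 is a forkhead-type transcription factor that sits at most RP promoters of budding yeast, usually beside Rap1. Ifh1 is a coactivator that is recruited through Fhl1 and links RP transcription to growth signals, and rapamycin inhibits the TOR kinase complex that carries such signals. Many yeast RP genes exist as an A and a B copy left from an ancient genome duplication, and the copies encode nearly the same protein but have promoters of their own. Rps14 is a protein of the small subunit, Rpl1 forms part of the mobile stalk of the large subunit beside the exit site for tRNA, and Rpl36 is a further large-subunit protein. RPS14B is also known for feedback: Rps14 protein binds the pre-mRNA of RPS14B and represses its expression.

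Values are log2 ratios with each array's own median set to 0, so that 0 is the level of the median feature and 1 is a doubling over it. Which dye held the tagged sample is not given for each array, and the deposited ratios did not share 1 direction: the median of the 123 other RP regions lay below the array median on 7 of the 12 arrays that showed an RP shift. These 7 arrays (Fhl1 rapamycin 1, 3 and 5, Fhl1 untreated 2 and 3, Ifh1 untreated 1 and 3) were turned in sign so that the other RP regions read upward. The labels give 1 dye swap per condition, that is, 1 array against the rest. The turning matches this in Fhl1 untreated (2 of 3 arrays turned), but not in Fhl1 rapamycin (3 of 5) or Ifh1 untreated (2 of 4). Every sign and mean below rests on the turning. High and low therefore mean toward and away from the other RP regions. If the true direction were the opposite on every array, every value would keep its size and change its sign. If only some arrays were turned wrongly, group means, SDs and changes would differ in size as well. After turning, the other RP median was 0.65 to 1.58 with Fhl1 rapamycin, 0.77 to 1.62 with Fhl1 untreated and 0.90 to 0.95 with Ifh1 untreated. On the 3 Ifh1 rapamycin arrays it lay between -0.06 and 0.00, so these arrays could not be oriented and are kept as deposited, with sizes rather than signs compared. Before turning, all 3 array pairs within Fhl1 untreated correlated below 0 over all features, and the lowest correlation among the 105 array pairs was -0.27. Fhl1 untreated arrays 2 and 3 were both turned, so their correlation stayed below 0. The turning therefore did not bring these replicates into agreement over all features.

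The region of RPS14A (YCR031C, chromosome III) faces that gene alone. It lay near the array median with both proteins, whereas the region of RPS14B (YJL191W, chromosome X) was well above it on all 8 Fhl1 arrays, at rank 1 to 76 of the 124 RP regions ranked (itself and the 123 others). The RPS14B region is shared with the divergently read SOP4, which encodes a membrane protein of the endoplasmic reticulum, and the array cannot assign the signal to either gene.

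RPS14A had 0.16, 0.18, -0.40, 0.32 and -0.56 on Fhl1 rapamycin arrays 1 to 5, against 0.01, 0.04 and -0.69 on Fhl1 untreated arrays 1 to 3. Its values in the treated and untreated Fhl1 groups overlapped, and none reached the other RP median of its array. On the Ifh1 untreated arrays RPS14A had 0.73, -0.29, -0.11 and -0.15, so that 1 array stood above the rest, and it too stayed under the other RP median.

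RPS14B had 2.04, 2.18, 2.67, 0.91 and 2.75 on the Fhl1 rapamycin arrays, against 1.57, 1.69 and 1.97 on the Fhl1 untreated arrays. The untreated values lay inside the treated range, and on Fhl1 rapamycin array 5 SOP4/RPS14B was the highest of all RP regions ranked. With Ifh1 untreated RPS14B had 1.60, -1.20, 1.76 and 0.30. These 4 arrays split widely: on arrays 1 and 3 it ranked 28 and 17 of 124, and on array 2 it ranked 123. Arrays 1 and 3 are the turned ones. Over all 12 arrays RPS14B averaged 0.75 ± 1.30 on the 5 arrays whose RP regions lay above the median as deposited and 2.07 ± 0.47 on the 7 whose RP regions lay below it (SD). With Fhl1 rapamycin the same means were 1.54 and 2.49, with Fhl1 untreated 1.57 and 1.83, and with Ifh1 untreated -0.45 and 1.68. The part of dye orientation in these values was not tested.

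**Figure D1:**
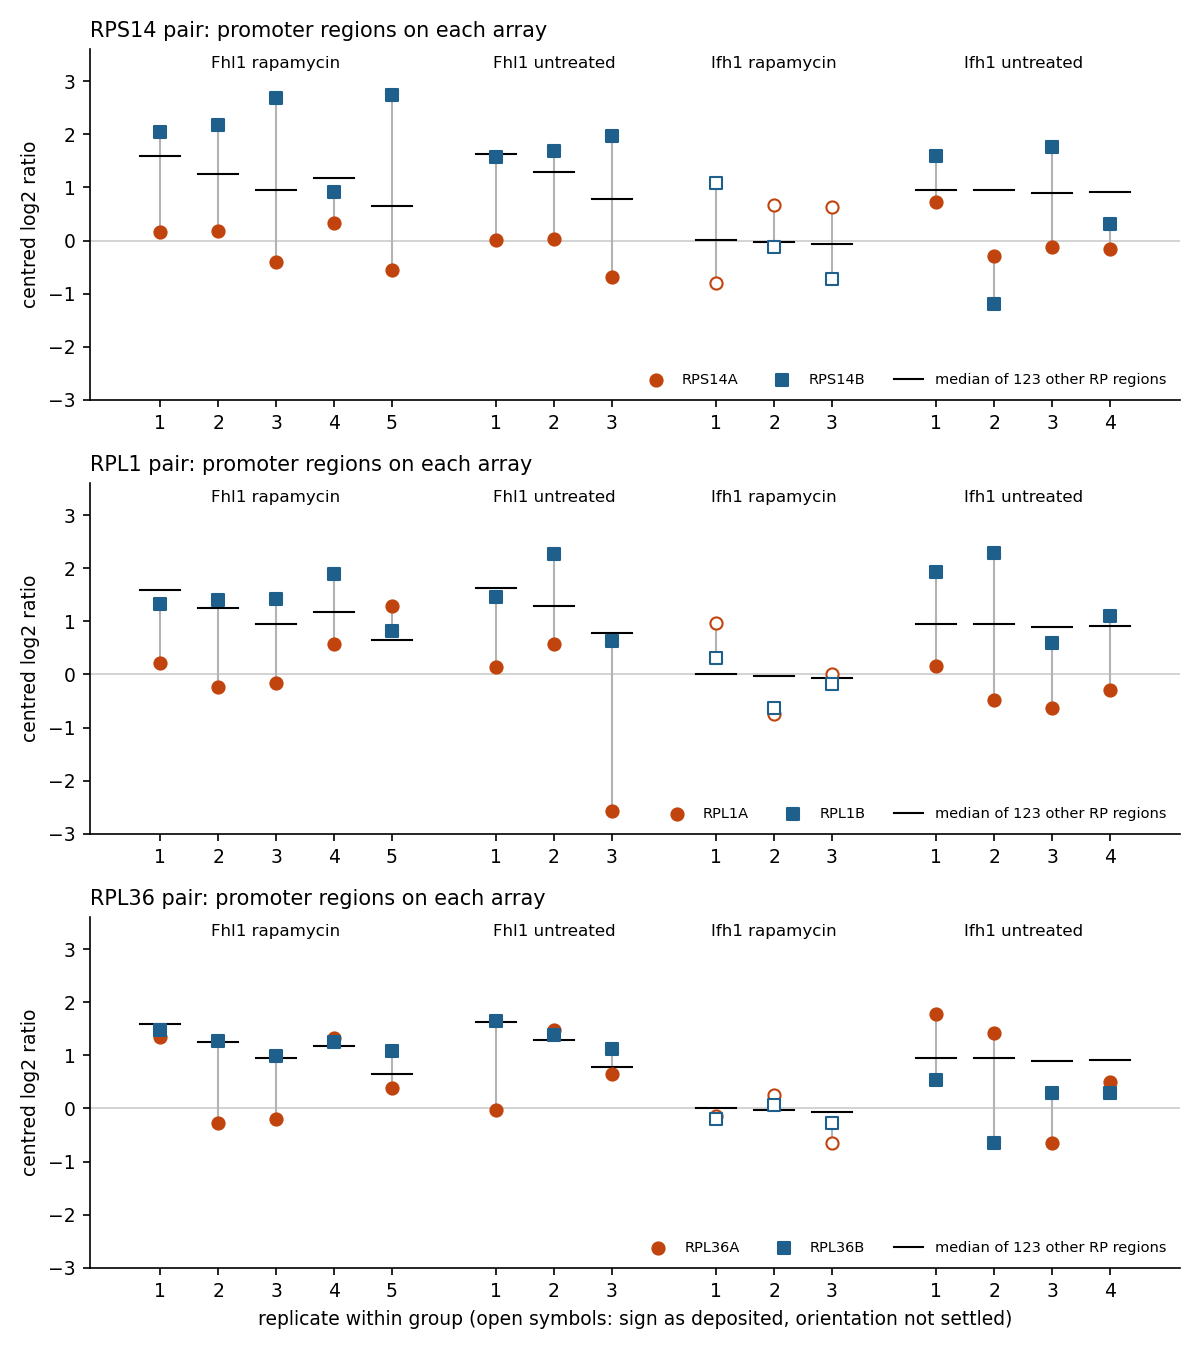
Centred log2 ratio (vertical axis) of the A copy (circles) and the B copy (squares) of each pair on each of the 15 arrays, with the median of the 123 other RP regions as a short black line; replicate numbers run along the horizontal axis within the 4 groups. RPS14B and RPL1B sit near or above the black line on most arrays while RPS14A and RPL1A sit near 0, and open symbols mark the Ifh1 rapamycin arrays, whose orientation is not settled.

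RPS14A minus RPS14B was -1.88, -2.00, -3.07, -0.59 and -3.30 on the Fhl1 rapamycin arrays, against -1.56, -1.65 and -2.66 on the Fhl1 untreated arrays. RPS14A was thus below RPS14B on 8 of 8 Fhl1 arrays, with a mean of -2.17 ± 1.09 in treated cells (SD, n = 5) and -1.95 ± 0.61 in untreated cells (SD, n = 3). On the Ifh1 untreated arrays the difference was -0.87, 0.91, -1.87 and -0.45, a mean of -0.57 ± 1.15 (SD, n = 4). RPS14A was below RPS14B on 3 of these 4 arrays, and the spread between them was larger than their mean. Without Ifh1 untreated array 2, on which RPS14A was the higher copy, the mean was -1.06. Without array 3 it was -0.14. Its sign also turned with orientation: it was 0.23 on the 2 arrays whose RP regions lay above the median as deposited and -1.37 on the 2 whose RP regions lay below it.

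The region of RPL1A (YPL220W, chromosome XVI) faces that gene alone. The region of RPL1B (YGL135W, chromosome VII) is shared with the divergent MRM2, which encodes a methyltransferase of mitochondrial ribosomal RNA. RPL1B carried signal with both proteins on every array that had an RP shift, and RPL1A was low with both on most of them.

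RPL1A had 0.22, -0.24, -0.16, 0.57 and 1.29 on the Fhl1 rapamycin arrays, against 0.14, 0.58 and -2.57 on the Fhl1 untreated arrays. The groups overlapped. Treated array 5 was the only one of the 12 with RPL1A above the other RP median, and untreated array 3 held the lowest value of any of the 6 regions. With Ifh1 untreated RPL1A had 0.16, -0.47, -0.63 and -0.29, all under the other RP median. The mean over the 12 arrays was -0.12 ± 0.94 (SD), and without Fhl1 untreated array 3 it was 0.11.

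RPL1B had 1.32, 1.41, 1.43, 1.89 and 0.82 on the Fhl1 rapamycin arrays, against 1.45, 2.27 and 0.63 on the Fhl1 untreated arrays. The treated values lay inside the untreated range. With Ifh1 untreated RPL1B had 1.93, 2.29, 0.59 and 1.10. Its lowest value over the 12 arrays still stood above 84.8% of all features of that array, and its mean was 1.37 ± 0.38, 1.45 ± 0.82 and 1.48 ± 0.77 with Fhl1 rapamycin, Fhl1 untreated and Ifh1 untreated (SD, n = 5, 3 and 4).

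RPL1A minus RPL1B was -1.10, -1.65, -1.59, -1.32 and 0.47 on the Fhl1 rapamycin arrays, against -1.32, -1.69 and -3.20 on the Fhl1 untreated arrays. On the Ifh1 untreated arrays it was -1.77, -2.76, -1.22 and -1.39. RPL1A was the lower copy on 11 of 12 arrays, Fhl1 rapamycin array 5 being the exception, and with Ifh1 untreated on 4 of 4. The group means were -1.04 ± 0.87, -2.07 ± 1.00 and -1.78 ± 0.69 with Fhl1 rapamycin, Fhl1 untreated and Ifh1 untreated (SD). RPL1 was selected on these levels, and pairs outside the selection had Ifh1 untreated means of similar size, such as RPS21 (-1.84) and RPL35 (1.85).

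The regions of RPL36A (YMR194W, chromosome XIII) and RPL36B (YPL249C-A, chromosome XVI) each face 1 gene. This pair did not show the inequality of the others: RPL36A was the lower copy on 7 of 12 arrays, and the mean of A minus B was -0.25 ± 1.11 (SD, n = 12). RPL36B was steady with Fhl1 and low with Ifh1, while RPL36A varied between arrays with both proteins.

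RPL36B had 1.48, 1.28, 0.99, 1.25 and 1.08 on the Fhl1 rapamycin arrays, against 1.66, 1.38 and 1.12 on the Fhl1 untreated arrays. Its SD of 0.19 among the treated arrays was the lowest of the 6 regions there, and the groups overlapped. On the Ifh1 untreated arrays RPL36B had 0.54, -0.65, 0.30 and 0.29, all under the other RP median. That median was itself lower with Ifh1 untreated (mean 0.93) than with Fhl1 rapamycin (1.12) or Fhl1 untreated (1.23). How many other RP regions were also lower with Ifh1 was not counted. The pair was selected on the same levels, so this difference between the proteins carries no test.

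RPL36A had 1.35, -0.28, -0.21, 1.33 and 0.38 on the Fhl1 rapamycin arrays, against -0.03, 1.48 and 0.65 on the Fhl1 untreated arrays. High and low arrays occurred in both groups, and 3 of the 8 values were below 0. With Ifh1 untreated RPL36A had 1.79, 1.41, -0.65 and 0.50, which spanned rank 22 to rank 124 of the 124 RP regions ranked.

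RPL36A minus RPL36B was -0.13, -1.56, -1.20, 0.08 and -0.70 on the Fhl1 rapamycin arrays, against -1.69, 0.09 and -0.47 on the Fhl1 untreated arrays. It was 1.25, 2.07, -0.94 and 0.21 on the Ifh1 untreated arrays. RPL36A was thus the lower copy on 6 of 8 Fhl1 arrays and the higher one on 3 of 4 Ifh1 untreated arrays. The means were -0.70 ± 0.69 with Fhl1 rapamycin, -0.69 ± 0.91 with Fhl1 untreated and 0.65 ± 1.30 with Ifh1 untreated (SD), and in each of the untreated groups the SD exceeded the size of the mean. Without Ifh1 untreated array 2 that group's mean was 0.17, and without array 3 it was 1.17. The Fhl1 untreated mean was -0.19 without array 1 and -1.08 without array 2. Of the other 53 RP pairs, 9 also had means of opposite sign with Fhl1 (8 arrays) and with Ifh1 untreated.

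**Figure D2:**
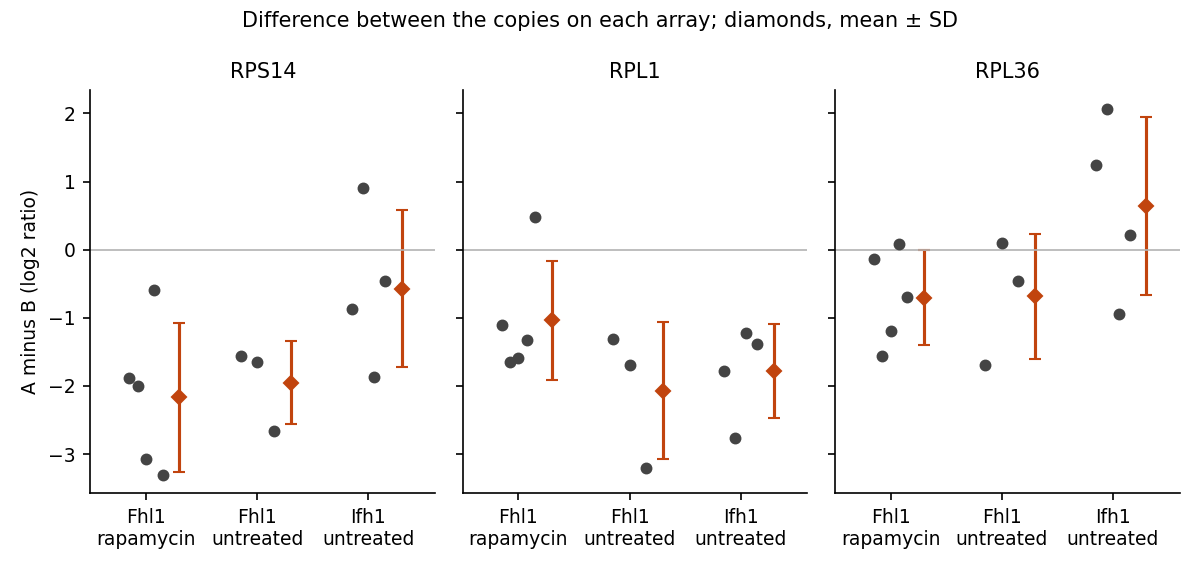
A minus B in log2 ratio (vertical axis) for the RPS14, RPL1 and RPL36 pairs on each array of Fhl1 rapamycin (5 arrays), Fhl1 untreated (3) and Ifh1 untreated (4); diamonds with bars are the mean ± SD. All 8 Fhl1 points of RPS14 and 11 of the 12 points of RPL1 lie below 0, whereas the points of RPL36 lie on both sides of it.

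Whether rapamycin altered the difference between copies was tested for Fhl1, with limma on A minus B of all 56 RP pairs that have a region for each copy. Of the 3 pairs, 0 passed an adjusted p of 0.05, and the share over all 56 pairs was 0% (limma with Benjamini-Hochberg adjustment; 2 pairs had an unadjusted p under 0.05, neither among the 3). A minus B of RPS14 changed by -0.22 between treated and untreated Fhl1 arrays (SE 0.66, 95% interval -1.58 to 1.15, limma adjusted p = 0.938). For RPL36 the change was -0.02 (95% interval -1.35 to 1.32, limma adjusted p = 0.994). These intervals leave room for a change of more than 1 log2 unit either way.

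For RPL1 A minus B was 1.03 higher with rapamycin (SE 0.59, 95% interval -0.21 to 2.27, limma adjusted p = 0.910), that is, the copies were less far apart in treated cells without passing the test. The exact permutation test over the 8 arrays gave a two-sided p of 0.179, where the smallest p that its 56 splits allow is 0.0357. Two-sided exact p was 0.786 for RPS14 and 1 for RPL36. The RPL1 value was 0.46 without Fhl1 untreated array 3 and 0.65 without Fhl1 rapamycin array 5, the arrays with the lowest and the highest RPL1A value. It also differed with the orientation of the arrays: it was -0.17 on the arrays whose RP regions lay above the median as deposited (2 treated and 1 untreated) and 1.71 on those whose RP regions lay below it (3 treated and 2 untreated). Within the same splits the change was 0.26 and -0.60 for RPS14, and 0.95 and -0.49 for RPL36. Arrays were also grouped outside the RP regions by a distance of 1 minus the absolute correlation (average linkage, cut at 0.9). This loose cut also joins weakly correlated arrays, of either sign, so its sets are not known batches. In the 1 set that held both Fhl1 groups (2 arrays each) the change was -1.04 for RPS14, 1.89 for RPL1 and -0.76 for RPL36.

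The regions themselves gave 0 calls among the 6, against 0% of all 6803 features (limma with Benjamini-Hochberg adjustment; 236 features had an unadjusted p under 0.05). RPL1A showed the widest change, 0.95 higher with rapamycin (SE 0.59, 95% interval -0.31 to 2.21, limma adjusted p = 0.999), and it was -0.02 without Fhl1 untreated array 3. RPS14B was 0.37 higher (95% interval -0.90 to 1.64) and RPS14A 0.15 higher (95% interval -0.59 to 0.90). RPL1B, RPL36A and RPL36B gave -0.08, -0.19 and -0.17. The narrowest interval was that of RPL36B, -0.86 to 0.52, and the adjusted p of all 6 regions was 0.999 in limma.

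For Ifh1 the size of the difference between copies was compared, since a size needs no orientation of the array. In the RPL1 pair it was 0.65, 0.12 and 0.20 on Ifh1 rapamycin arrays 1 to 3, against 1.77, 2.76, 1.22 and 1.39 on Ifh1 untreated arrays 1 to 4. The treated and untreated values did not overlap. Every treated array lay below every untreated one in 3 of the 56 RP pairs (5.36%), RPL1 among them, and since the untreated levels served to select the pairs this is given without a test. The mean size was 0.33 ± 0.29 with Ifh1 rapamycin and 1.78 ± 0.69 with Ifh1 untreated (SD), which made RPL1 the pair of rank 48 in size among 56 in treated cells and of rank 3 in untreated cells. Without Ifh1 rapamycin array 1 the treated size was 0.16.

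In the RPL36 pair the size was 0.06, 0.19 and 0.37 on the Ifh1 rapamycin arrays, against 1.25, 2.07, 0.94 and 0.21 on the Ifh1 untreated arrays. Untreated array 4 fell inside the treated range and the others lay above it. The mean size of 0.20 with Ifh1 rapamycin was the smallest among the 56 pairs, against 1.12 with Ifh1 untreated. Without Ifh1 rapamycin array 3 the treated size was 0.12.

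The RPS14 pair went the other way. Its size was 1.88, 0.80 and 1.36 on the Ifh1 rapamycin arrays, against 0.87, 0.91, 1.87 and 0.45 on the Ifh1 untreated arrays, and the groups overlapped. The means were 1.35 ± 0.54 with Ifh1 rapamycin and 1.03 ± 0.60 with Ifh1 untreated (SD). As deposited, RPS14A was the lower copy on treated array 1 and the higher one on treated arrays 2 and 3. Among all 56 pairs RPS14 ranked 4 in size with Ifh1 rapamycin and 18 with Ifh1 untreated. Over the 53 other pairs the median size was 0.60 with Ifh1 rapamycin and 0.79 with Ifh1 untreated, and 33 of them had a smaller mean size in treated cells.

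**Figure D3:**
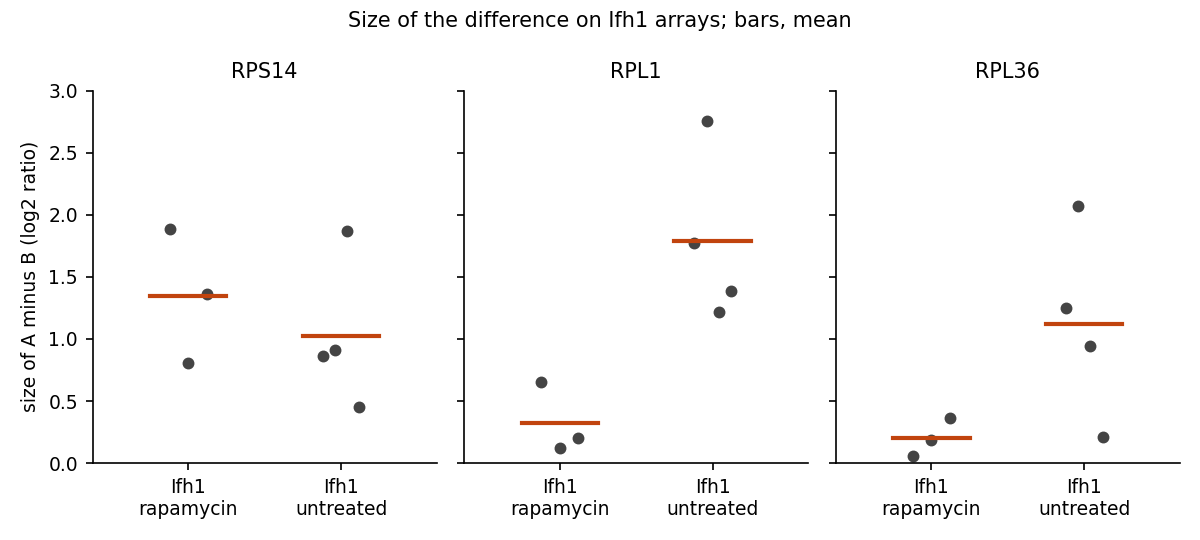
Size of A minus B in log2 ratio (vertical axis) on the 3 Ifh1 rapamycin arrays and the 4 Ifh1 untreated arrays for each pair, with the mean as a bar. The RPL1 points do not overlap between the groups (0.12 to 0.65 and 1.22 to 2.76), those of RPL36 overlap through 1 untreated array, and those of RPS14 overlap widely.

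Unequal copies were not restricted to these pairs. Over the 12 oriented arrays the size of the mean A minus B of the 53 other pairs ran from 0.03 to 1.89 with a median of 0.68, and it was over 1 in 12 of them. RPS14 (1.58) and RPL1 (1.54) ranked 3 and 4 of the 56 pairs and RPL36 (0.25) ranked 47. The RPL36 mean pools opposite signs, -0.70 over the 8 Fhl1 arrays and 0.65 with Ifh1 untreated. RPS16 and RPL13 share both of their regions with A and B exchanged, yet were counted as separate pairs among the 56 throughout. In 18 of the 53 other pairs the same copy was the lower one on at least 11 of the 12 arrays, as in RPS14 and RPL1.

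Other pairs with a large difference included RPP2, RPS21, RPS19 and RPL35. RPP2 encodes acidic stalk proteins of the large subunit, and there the A copy was higher: RPP2A, whose region is shared with RPS15, averaged 1.65 and RPP2B -0.24. RPS21A averaged 0.17 and RPS21B, whose region is shared with LCB3, 1.90. RPS21 and RPS19 had the A copy below the B copy on 12 of 12 arrays, more regularly than RPS14 or RPL1. A copy with a mean under 0.25 beside a copy over 1, the pattern of RPS14 and RPL1 over the 12 arrays, occurred in 3 other pairs. For RPS14 the pattern rests on the 8 Fhl1 arrays, where A minus B averaged -2.09. With Ifh1 untreated it averaged -0.57, and RPS14B averaged 0.61.

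**Figure D4:**
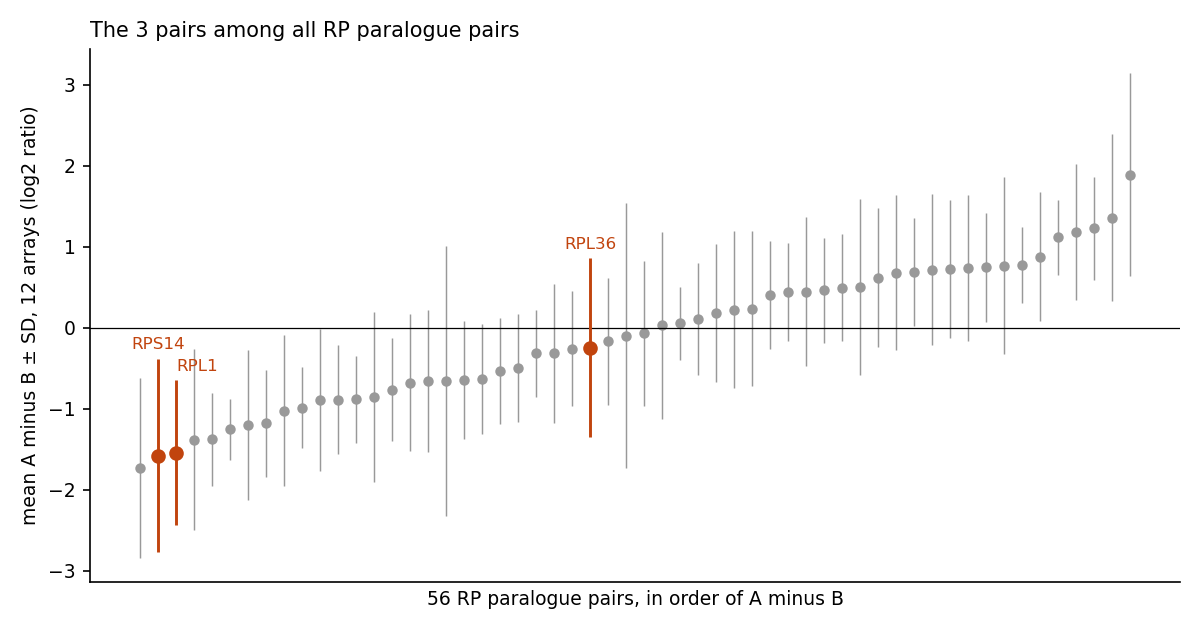
Mean A minus B over the 12 oriented arrays in log2 ratio (vertical axis, bars are SD) for the 56 RP paralogue pairs in ascending order, the 3 selected pairs in colour. RPS14 and RPL1 lie near the low end, next to RPS21, and RPL36 lies in the middle among pairs whose bars cross 0.

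Set among all RP regions, the low copies were near the bottom. Of the 123 other RP regions, 118 had a higher mean over the 12 arrays than RPS14A (-0.06 ± 0.39) and 119 a higher one than RPL1A (-0.12 ± 0.94), while 6 of the 123 had a mean below 0. For RPS14B (1.52 ± 1.09) and RPL1B (1.43 ± 0.58) the numbers were 38 and 43. RPL36A (0.64 ± 0.82) and RPL36B (0.89 ± 0.66) had 91 and 72 regions above them, and the median of the other RP regions was 1.09. These means pool 8 Fhl1 and 4 Ifh1 untreated arrays, and for RPL36B and RPS14B they describe neither protein. RPL36B averaged 1.28 with Fhl1 (rank 37 to 66 of 124) and 0.12 with Ifh1 untreated (rank 80 to 122). RPS14B averaged 1.97 and 0.61. RPS14A, RPL1A, RPL1B and RPL36A differed less between the proteins.

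The regions most like each copy were found by the root mean square difference over the 12 arrays. For both RPS14A (0.42) and RPL1A (0.89) the nearest was the region of RPL7A, a large-subunit gene whose mean was 0.11 ± 0.35. The next was YPL080C/RPL21B for RPS14A (0.55) and YPL199C/RPL7B for RPL1A (0.92). The median difference to all other RP regions was 1.34 for RPS14A and 1.59 for RPL1A.

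RPS14B was nearest to YOR292C/RPS10A (0.85) and YGR117C/RPS23A (0.90), which are small-subunit genes. RPL1B was nearest to RPS26A (0.53) and RPL19A/AAC3 (0.57). RPL36A was nearest to RPS1A (0.69) and RPS19A (0.70), of which RPS19A is the low copy of a pair named above. RPL36B was nearest to RPS12 (0.50) and UTP6/RPS18A (0.51). These are differences between array profiles that share the turning of each array, and no more is drawn from them.

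The regions on the 3′ side of the genes served as a comparison within the same arrays. Those of RPL1A, RPL1B, RPL36A and RPL36B are not free of promoters. They are also faced by the 5′ ends of PCL8, PCL10, ICY1 and ATG41, in that order. RPS14B averaged 0.02 ± 0.35 on its 3′ side, a region between RPS14B and the end of RPS22A, against 1.52 ± 1.09 on its 5′ side (SD, n = 12), and the 5′ side was higher on 11 of 12 arrays. RPL1B averaged 0.43 ± 0.52 on its 3′ side, and its 5′ side was higher on 12 of 12 arrays. RPL36B averaged 0.22 ± 0.37 on its 3′ side and 0.32 ± 0.43 on a feature of its coding region. Its 5′ side was higher than its 3′ side on 10 of 12 arrays, all 8 Fhl1 arrays included. With Ifh1 untreated its 5′ side averaged 0.12 and its 3′ side 0.22.

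RPL1A and RPS14A did not show this step in their means over the 12 arrays. The pairs were selected for a copy with little 5′ signal, so this is a description only. RPL1A averaged -0.10 ± 0.27 on its 3′ side, with the 5′ side higher on 8 of 12 arrays. With Fhl1 rapamycin its 5′ side averaged 0.34 and its 3′ side -0.11, the 5′ side being higher on 4 of 5 arrays. It was higher on 2 of 3 Fhl1 untreated and 2 of 4 Ifh1 untreated arrays. Its 5′ mean of -0.12 was 0.11 without Fhl1 untreated array 3. RPS14A averaged 0.21 ± 0.62 on its 3′ side, bounded by the small nucleolar RNA gene SNR65, with the 5′ side higher on 3 of 12 arrays and level on 1. RPL36A averaged 0.10 ± 0.88 on its 3′ side, where the 5′ side was higher on 7 of 12 arrays.

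**Figure D5:**
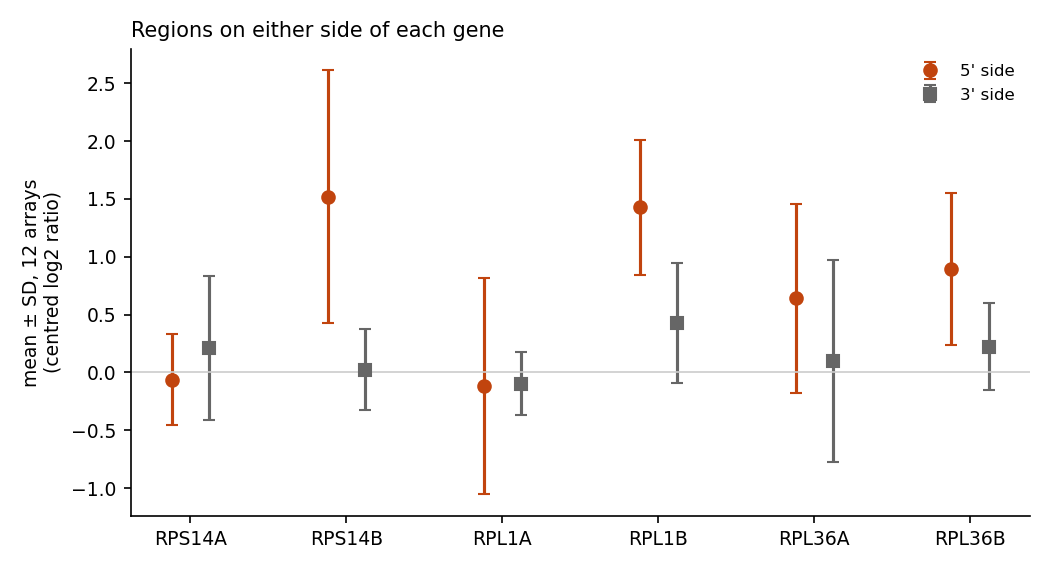
Mean ± SD over the 12 oriented arrays of the centred log2 ratio (vertical axis) of the region on the 5′ side (circles) and on the 3′ side (squares) of each of the 6 genes. RPS14B, RPL1B and RPL36B have a 5′ side above their 3′ side by more than 0.6, and the sides of RPS14A and RPL1A lie within 0.3 of each other.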

How the data were processed

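The deposited table holds 1 value per feature and array for 15 arrays. The authors' values are log2 ratios: no header states the base, and 2 to the power of each deposited log2 value gave a ratio with 3 decimals for 100% of values (tolerance 0.002). Scanning used GenePix Pro 4.0, per the labels' protocols. The labels do not state the normalisation or the filters. One dye swap per condition was made, per the labels, without naming the array.

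Each array was centred on its median and turned as described above. A region name gives the reading frame on its lower-coordinate side: of 60 frames with a gap on the higher side only, 46 named a region, against 5 of 63 with a gap on the lower side only. Genes and neighbours came from a RefSeq gene table, which matched 5565 of 6378 region names. The array's build is not given, so no coordinates and no sequences are printed. RPL26, RPL8 and RPS22 lacked a region for each copy, which left 56 of 59 RP pairs. Array number limits the precision.

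limma 3.58.1 in R 4.3.3 (3 groups in 1 fit, 12 arrays, no covariates, two-sided) tested Fhl1 rapamycin minus untreated over all features and over all pairs, with Benjamini-Hochberg adjustment, after being tested on simulated data. Ifh1 rapamycin arrays stayed out of the fit. Exact permutation tests used scipy 1.17.1. Named genes were the 6 members and genes sharing their regions, the 2 other RP regions nearest to each, the 5 other pairs of largest mean difference, of which 1 is not reported here, and the 3′ regions. Members and lists were chosen with earlier results of these data known. Alternatives covered turning, scaling, centring, blocks, arrays included and leaving out each array.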

Additional observations from a re-analysis of the deposited data

Results flagged for a closer look

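Among 18 groups of 4 or 5 arrays examined (6 regions and 3 pairs, with Fhl1 rapamycin and Ifh1 untreated), 1 array stood far from the others by Dixon's ratio. A minus B of the RPL1 pair on Fhl1 rapamycin array 5 was 0.47, while the other 4 arrays of the group lay between -1.65 and -1.10. The ratio of the gap to the range was 0.740. Chance marks about 1 in 20 such groups. Without this array the mean A minus B of RPL1 in the group was -1.41, against -1.04 with it.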

How the results depend on the processing

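Taken as deposited, with no array turned, opposite orientations were averaged together and the means of A minus B moved beyond their SD: RPS14 to 1.13, 0.92 and 0.80 with Fhl1 rapamycin, Fhl1 untreated and Ifh1 untreated, RPL1 to -0.15, 1.19 and -0.29, and RPL36 with Fhl1 rapamycin to 0.11. The Fhl1 change with rapamycin in A minus B then had the opposite sign, at 0.22 for RPS14, -1.34 for RPL1 and 0.55 for RPL36, as it did for the regions of RPS14B (-0.18), RPL1A (-0.91), RPL1B (0.43), RPL36A (0.63) and RPL36B (0.077). On the array of Fhl1 untreated whose RP regions lay above the median, A minus B of RPL36 was -1.69. Leaving out 1 array at a time, the change in A minus B ran from -0.61 to 0.069 for RPS14, from 0.46 to 1.41 for RPL1 and from -0.52 to 0.37 for RPL36, and the change in the region from -0.084 to 0.28 for RPS14A, -0.024 to 1.55 for RPL1A, -0.49 to 0.33 for RPL1B, -0.55 to 0.20 for RPL36A, 0.21 to 0.67 for RPS14B and -0.31 to -0.035 for RPL36B. With the replicate block RPL1B changed by 0.059, and A minus B by -0.17 for RPS14, 0.57 for RPL1 and -0.07 for RPL36. Same-numbered Fhl1 arrays shared only a number, since their deviations correlated at 0.07, -0.11 and -0.16. No pair and no feature was called in any of the alternatives run. The mean of RPL1A without Fhl1 untreated array 3 was added after seeing the data. Each gene has 1 region, 3 of the groups have at most 4 arrays, the orientation is assumed for 12 arrays and unknown for 3, and each shared region cannot be split between its genes.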
